A study of Mus musculus with 4 samples.

Results

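Nqo1, Hmox1, Gclc, Gclm, Txnrd1, Srxn1 and Nfe2l2 are 7 antioxidant genes of the Nrf2 pathway, taken by symbol. All 7 were among the 19465 genes measured, and all 7 passed the filter on low counts in every comparison. Transcripts were counted by Visium, a spatial assay on a grid of barcoded spots, in 4 fixed mouse liver sections, each from its own mouse. The mice were males aged 5 months by their labels, carried floxed Hk2 alleles (Hk2 encodes hexokinase 2, the first enzyme of glycolysis), and had all received tamoxifen, 75 mg/kg on 5 successive days, with 2 weeks of rest afterwards. The healthy section (n = 1, HK2fl/fl) had olive oil. The fibrotic sections (n = 2, HK2fl/fl) had carbon tetrachloride (CCl4), a toxin that pericentral hepatocytes activate, 1 µL per g 2 times a week. The Hk2-deleted section (n = 1, PDGFRBcreERT2/Hk2fl/fl) had CCl4 too; its Cre, switched on by tamoxifen, is driven by the promoter of Pdgfrb, a gene of hepatic stellate cells and other mesenchymal cells and not of hepatocytes. The design text gives 6 weeks of CCl4 and the protocol 4 or 6.

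Nrf2, the protein of Nfe2l2, is a transcription factor that Keap1 and the Cul3 ligase mark for breakdown. Oxidants and electrophiles modify Keap1, Nrf2 then accumulates, pairs with small Maf proteins and binds antioxidant response elements, from which Bach1 can displace it. Most of this control acts on the protein, which was not measured here. In the liver the pathway is known for glutathione synthesis, the thioredoxin system and the handling of reactive drug products, many of which arise in pericentral hepatocytes.

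The regulator's gene Nfe2l2 (ENSMUSG00000015839) lies on chromosome 2 at 75675513 to 75704663 in GRCm38.p6. Gclc (ENSMUSG00000032350; chromosome 9, 77754535 to 77794489) encodes the catalytic subunit of glutamate-cysteine ligase, the rate-limiting enzyme of glutathione synthesis, and Gclm (ENSMUSG00000028124; chromosome 3, 122245487 to 122267215) its modifier subunit. Txnrd1 (ENSMUSG00000020250; chromosome 10, 82833951 to 82897724) encodes the cytosolic thioredoxin reductase. Srxn1 (ENSMUSG00000032802; chromosome 2, 152105524 to 152111376) encodes sulfiredoxin, which restores overoxidised peroxiredoxins. Nqo1 (ENSMUSG00000003849; chromosome 8, 107388225 to 107403205) encodes a quinone reductase. Hmox1 (ENSMUSG00000005413; chromosome 8, 75093618 to 75100593) encodes haem oxygenase 1, which breaks down haem and is abundant in macrophages that clear red cells.

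Promoter windows from RefSeq (GRCm38.p6), each the 250 bases before an annotated start, were held for 5 of the 7 genes; Hmox1 and Gclc had no entry. The core of the antioxidant response element, TGACNNNGC on either strand, and its looser form TGANNNNGC, of which every core is also a match, were searched. The core was in 10.2% and the looser form in 35.2% of 32851 mouse promoter windows of the same length. The windows of Nfe2l2 (chr2:75704664-75704913, minus strand), Srxn1 (chr2:152105274-152105523, plus strand) and Nqo1 (chr8:107403206-107403455, minus strand) are shown because these 3 genes leaned to the pericentral zone in all 4 sections. They run 5′ to 3′, with matches to the looser form in capitals.
Nfe2l2: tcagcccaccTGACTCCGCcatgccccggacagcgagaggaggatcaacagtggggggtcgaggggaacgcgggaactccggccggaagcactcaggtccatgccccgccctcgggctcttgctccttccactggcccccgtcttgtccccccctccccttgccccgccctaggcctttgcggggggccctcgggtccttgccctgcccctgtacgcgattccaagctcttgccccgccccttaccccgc
Srxn1: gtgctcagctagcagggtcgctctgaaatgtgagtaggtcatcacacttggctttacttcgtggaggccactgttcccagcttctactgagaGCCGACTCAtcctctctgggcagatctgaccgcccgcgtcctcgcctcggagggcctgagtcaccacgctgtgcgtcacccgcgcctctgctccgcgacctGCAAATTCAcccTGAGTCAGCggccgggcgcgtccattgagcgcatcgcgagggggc
Nqo1: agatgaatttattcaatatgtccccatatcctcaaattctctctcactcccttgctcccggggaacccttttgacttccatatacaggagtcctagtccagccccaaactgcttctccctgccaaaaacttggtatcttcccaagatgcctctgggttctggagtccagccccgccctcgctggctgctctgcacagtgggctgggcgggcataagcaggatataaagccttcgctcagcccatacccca
In Nfe2l2 the match, TGACTCCGC, began 240 bases before the start and also met the core. Srxn1 had 3 matches to the looser form, which began 158, 57 and 45 bases before the start, and none to the core. Nqo1 had neither form in these bases, which says nothing about sites elsewhere. Gclm had a core match 134 bases before the annotated start that its window (chr3:122245307-122245556) precedes. That start lies inside the gene span given above, which begins at 122245487. Of 3 Txnrd1 windows 1 held a core match, 92 bases before that window's start site. A match describes letters only, and no binding was measured.

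Sections held 2577 to 4134 spots and 40585039 to 67479047 UMIs (unique molecules counted), with medians of 13665 to 15588 UMIs a spot. Fibrotic replicate 1 goes against its label in its Y-linked transcripts, which summed to 1.23 CPM (UMIs scaled to the library's total in the usual unit). They summed to 148 to 157 CPM in the others. Some of the results that rest on fibrotic replicate 1, but not all, are therefore also given without it. The libraries shared 1710 spot barcodes, which name positions on the slide and not cells. All 6 hepatocyte markers were present in every section. The 16 macrophage markers summed to 1557 CPM in healthy liver and 2554 to 3477 CPM with CCl4, and the 8 stellate cell markers to 262 and 565 to 757 CPM. Likewise 8 neutrophil markers summed to 18.0 and 520 to 1198 CPM, and hepatocyte markers to 204956 and 123214 to 184144 CPM. Levels below are normalised CPM, scaled by edgeR's TMM so that most genes are level between samples. Scaling to total UMIs alone moved the median of all genes by 0.34 log2 with CCl4, 0.21 between zones and 0.33 in collagen-high spots, so each change is relative to the other genes.

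The first comparison, of CCl4 with olive oil, takes each section as a whole. The transcript of the regulator itself, Nfe2l2, and that of Nqo1 stood higher in the fibrotic sections than in the healthy one, Gclc stood lower, and no member passed the test. In the healthy section Nfe2l2 was at 81.3 normalised CPM, with an exact Poisson 95% interval of 78.7 to 83.9; fibrotic replicates 1 and 2 had 135 (133 to 138) and 105 (102 to 108), and the Hk2-deleted section 116 (114 to 119). All 3 CCl4-treated sections lay above the healthy one. The fitted difference was 0.56 ± 0.25 log2 (SE; 1.48-fold; edgeR quasi-likelihood, Benjamini-Hochberg adjusted p = 0.152). The fibrotic replicates lay further apart than their counting intervals, and the lone sections are assumed to vary like them. Under total UMI scaling Nfe2l2 was called, at 0.91 log2 (adjusted p = 0.000157), and without fibrotic replicate 1 the difference was 0.37 log2, with no test.

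Nqo1 was at 12.5 normalised CPM in healthy liver, while fibrotic replicates 1 and 2 had 20.8 and 14.1 and the Hk2-deleted section 12.6. Fibrotic replicate 1 was the high one, and the counting intervals of the other 3 sections overlapped. The difference with CCl4 was 0.49 ± 0.23 log2 (adjusted p = 0.170), falling to 0.18 log2 without fibrotic replicate 1, and it was called under total UMI scaling only (0.84 log2, adjusted p = 0.0415).

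Gclc was at 269 normalised CPM in healthy liver, while fibrotic replicates 1 and 2 had 145 and 193 and the Hk2-deleted section 135. The healthy section was above every CCl4-treated one. The difference was -0.67 ± 0.27 log2 (1.59-fold lower; adjusted p = 0.107), and it was negative under all 10 alternatives run, from -0.90 to -0.35 log2. Gclm, the partner subunit, was at 150, 107, 167 and 114 normalised CPM in the same order, so the healthy value lay between those of the fibrotic replicates. Its difference was -0.13 ± 0.27 log2 (adjusted p = 0.795) and turned to 0.18 log2 under total UMI scaling and to 0.15 log2 without fibrotic replicate 1.

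Txnrd1 was at 60.3 normalised CPM in healthy liver, 43.5 and 55.7 after CCl4 and 41.6 with Hk2 deleted, a difference of -0.28 ± 0.21 log2 (adjusted p = 0.414; 0.04 under total UMI scaling). Srxn1 was at 11.2, 12.6, 13.7 and 10.1 normalised CPM, or 0.22 ± 0.21 log2 (adjusted p = 0.521). Hmox1 was at 30.7, 31.8, 26.9 and 26.4 normalised CPM, or -0.06 ± 0.18 log2 (adjusted p = 0.858; 0.28 under total UMI scaling). For Hmox1 the healthy normalised value lay between those of the fibrotic replicates. Summed macrophage markers, given on the CPM scale, were higher in all 3 CCl4-treated sections. On that scale Hmox1 was at 25.6 in the healthy section, 35.7 and 26.4 in fibrotic replicates 1 and 2, and 28.8 with Hk2 deleted. The counting intervals of the healthy section and fibrotic replicate 2 overlapped there. Of all 14125 genes tested, 9.64% were called higher and 4.01% lower (13.7% in all). Of the 7 members 0 were called, 3 (Nfe2l2, Nqo1 and Gclc) had an unadjusted p under 0.05, as did 3902 of the 14125 genes, and DESeq2 also called 0. The median difference of the members was -0.06 log2, beside 0.00 over all genes. In simulated data of this design, 37% of changes of 1 log2 unit and 87% of changes of 2 were recovered. In a tissue sum, fewer cells of a type and less RNA per cell cannot be told apart.

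**Figure D1:**
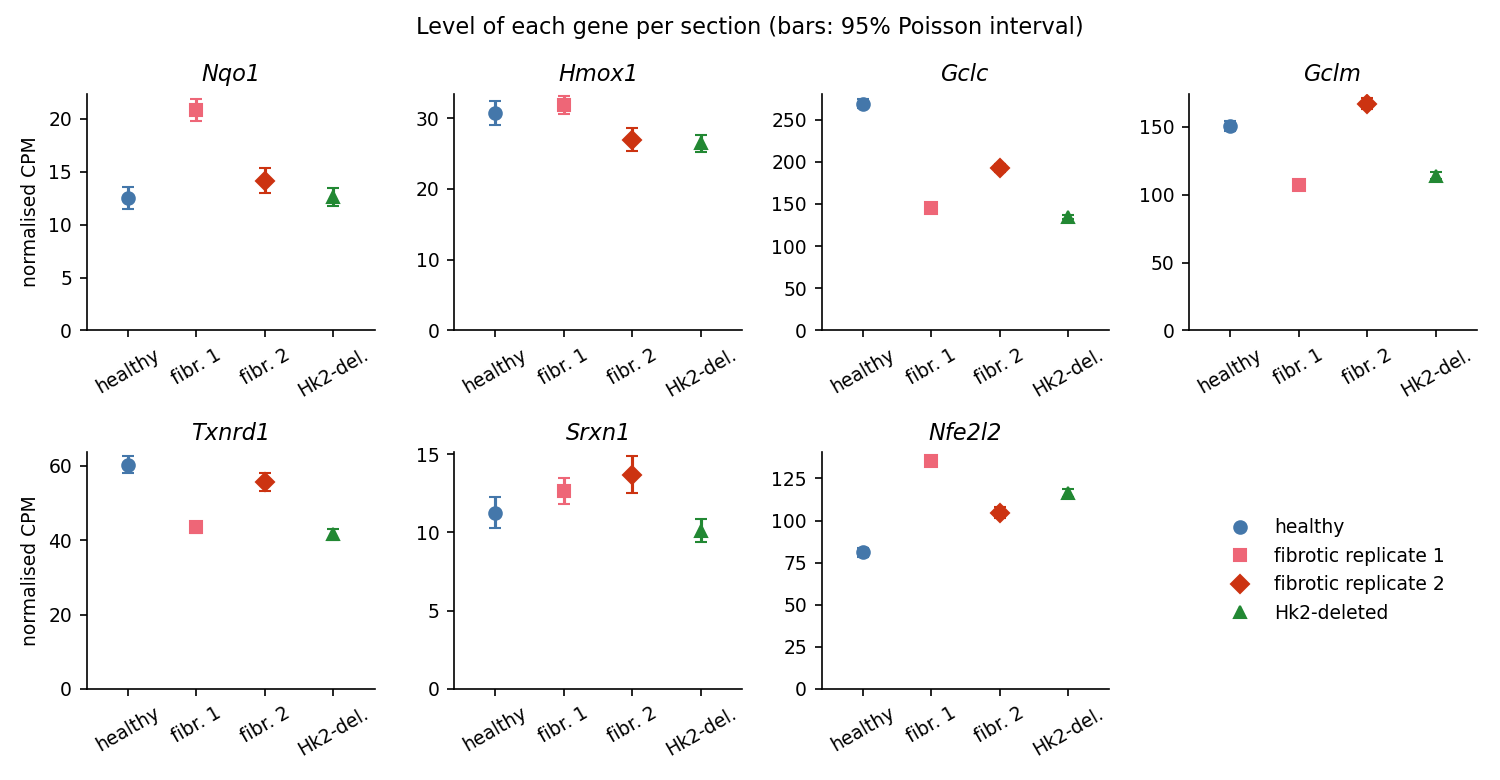
Level of each gene in the 4 sections. The vertical axes give normalised CPM from 0; points are sections and bars are exact Poisson 95% intervals, which cover counting error only. For Gclc the healthy section (269) lies above the CCl4-treated ones (135 to 193), and for Nfe2l2 (81.3) below them (105 to 135).

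Of all genes tested with CCl4, 9.64% were called higher and 4.01% lower. Among 66 further genes of the pathway, 65 could be tested: 6 rose and 7 fell, with a median of -0.10 log2. Of these calls 6 were lost in DESeq2, 6 with collagen-high spots left out and 3 under total UMI scaling. The repressor and a Maf partner were among those that fell. Bach1 was at 76.5 normalised CPM in the healthy section and 36.0, 38.6 and 33.4 in fibrotic replicates 1 and 2 and the Hk2-deleted section, and fell by 1.04 log2 (SE 0.20, adjusted p = 0.0012). Maff, a small Maf that is also an immediate early gene, was at 30.9, 8.97, 8.77 and 5.82 normalised CPM and fell by 1.80 log2 (SE 0.19, adjusted p = 2.34e-06). The healthy section was the high one for both, 2.05-fold and 3.48-fold above, with no overlap. Both were called under every tested alternative, and kept their size without fibrotic replicate 1 (-0.99 and -1.81 log2). Chac1, which degrades glutathione, fell by 1.88 log2 (SE 0.28, adjusted p = 0.000101), from 17.4 normalised CPM to 3.31 and 6.28 in the fibrotic replicates.

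Gstm3, a glutathione transferase of the mu class, rose from 85.3 normalised CPM to 442 and 482 in the fibrotic replicates (2.44 ± 0.34 log2, adjusted p = 5.38e-05), with 225 in the Hk2-deleted section. Mu-class genes are close copies of each other, and how the probes tell them apart is not given in the sources used here, so the split among them is uncertain. Gpx2, a glutathione peroxidase, was called higher too (adjusted p = 0.0208), but on 1 UMI in the healthy section against 53 in the fibrotic ones, a ratio of 20.6 with an exact counting interval of 3.55 to 830, and DESeq2 did not call it. Keap1 was at 29.4, 26.4, 25.9 and 27.2 normalised CPM in the 4 sections (-0.17 ± 0.18 log2, adjusted p = 0.572; 0.17 under total UMI scaling).

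Hk2 deletion in Pdgfrb-expressing cells was compared with the 2 fibrotic sections, which are also the CCl4 side above. All 7 members were lower in the Hk2-deleted section, from -0.48 ± 0.22 log2 (Nqo1) over -0.38 ± 0.21 (Srxn1), -0.33 ± 0.28 (Gclc), -0.27 ± 0.28 (Gclm), -0.25 ± 0.22 (Txnrd1) and -0.15 ± 0.18 (Hmox1) to -0.04 ± 0.25 (Nfe2l2). None was called (adjusted p = 1.00 for each), 1 (Nqo1) had an unadjusted p under 0.05, as did 443 of the 14125 genes, and DESeq2 called 0 as well. Of all genes 0.142% were called higher and 0.085% lower (0.227% in all). Summed hepatocyte markers were lowest in the Hk2-deleted section too, at 123214 CPM against 184144 and 165319 CPM in fibrotic replicates 1 and 2; their part in these differences was not tested. For Gclm and Nfe2l2 the Hk2-deleted section lay between the fibrotic replicates, and for Hmox1 its counting interval (25.2 to 27.7) overlapped that of fibrotic replicate 2 (25.3 to 28.6 normalised CPM). Without fibrotic replicate 2 the Gclm difference turned to 0.09 log2, and without fibrotic replicate 1 that of Nfe2l2 turned to 0.15 log2 and that of Nqo1 shrank to -0.16. Of the other pathway genes 0 of 65 were called, 12 were higher and 53 lower by sign, with a median of -0.13 log2 beside -0.01 over all genes, and Fth1 (ferritin heavy chain, 0.30 ± 0.68 log2) and Gpx1 (glutathione peroxidase 1, 0.20 ± 0.65 log2) had the most UMIs. Keap1 differed by 0.06 ± 0.18 and Bach1 by -0.16 ± 0.20 log2, neither called. Hk2 itself was at 4.88 and 3.94 CPM in the fibrotic sections and 3.50 CPM in the Hk2-deleted one; where the probes lie relative to the deleted part is not given, so this level checks nothing.

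Each lobule runs from portal to central vein. Spots were ranked within their section by 9 pericentral against 12 periportal landmark genes, none of them a member, and cut into 3 equal parts, here called the periportal, middle and pericentral zone. The pericentral was set against the periportal zone with section as a block. Nqo1 was higher in the pericentral zone of every section and was the 1 member called. Its level in the periportal, middle and pericentral zone was 10.6, 11.9 and 15.6 normalised CPM in the healthy section. The same zones had 16.8, 20.5 and 23.8 in fibrotic replicate 1, 10.8, 14.2 and 16.9 in fibrotic replicate 2, and 11.4, 13.1 and 13.6 in the Hk2-deleted section. Every section climbed in the same order, by 0.56, 0.50, 0.64 and 0.25 log2, and the fit gave 0.48 ± 0.09 log2 (1.39-fold; adjusted p = 0.0156). Of 12659 genes tested, 5.96% were called higher and 5.07% lower in the pericentral zone (11% in all). With 2 residual degrees of freedom left, the call was lost without fibrotic replicate 1 (0.48 log2, adjusted p = 0.121), fibrotic replicate 2 (0.43, 0.108) or the Hk2-deleted section (0.56, 0.052), while the size stayed within 1.5 times.

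Srxn1 and Nfe2l2 leaned the same way in 4 of 4 sections without passing. Srxn1 differed by 0.25, 0.49, 0.45 and 0.15 log2 in the healthy section, fibrotic replicates 1 and 2 and the Hk2-deleted section, and by 0.34 ± 0.09 log2 in the fit (adjusted p = 0.0545). Over the alternatives its adjusted p ran from 0.0078 to 0.296, with 5 of 11 calling it. Nfe2l2 differed little across the healthy lobule, at 80.7, 78.5 and 83.1 normalised CPM from the periportal to the pericentral zone. It climbed in fibrotic replicate 1 from 121 over 133 to 147, in fibrotic replicate 2 from 92.9 over 102 to 117, and in the Hk2-deleted section from 107 over 116 to 129. The fit over all sections gave 0.23 ± 0.07 log2 (adjusted p = 0.0677). Without the healthy section it gave 0.29 log2 and passed (adjusted p = 0.000287). That was the lowest adjusted p over the alternatives, of which 2 of 11 called Nfe2l2 and the highest gave 0.311.

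Whether the zone difference itself differed between CCl4 and olive oil was tested with a zone by CCl4 term. Gclc was the 1 member called. In the healthy section it climbed towards the central vein, with 248, 264 and 298 normalised CPM in the 3 zones. In fibrotic replicate 1 it went the other way with 153, 146 and 141, in fibrotic replicate 2 with 199, 188 and 188, and in the Hk2-deleted section with 143, 138 and 127. The pericentral to periportal difference was thus 0.26 log2 in the healthy section and -0.11, -0.08 and -0.16 in the CCl4-treated ones, and the term was -0.38 ± 0.09 log2 (adjusted p = 0.0085). Of all genes 11.4% were called lower and 9.39% higher by this term (20.8% in all). It remained past the threshold without each CCl4-treated section (without fibrotic replicate 1, -0.38 log2, adjusted p = 0.0063) and in 9 of 10 alternatives, total UMI scaling being the exception (-0.24 log2, adjusted p = 0.0922). On the CPM scale, without TMM, Gclc climbed towards the central vein in every section. It went from 203 to 261 in the healthy section and from 155 to 171 and 180 to 206 in fibrotic replicates 1 and 2. In the Hk2-deleted section it went from 144 to 150. The turn of direction with CCl4 is thus relative to the other genes. The olive oil side of the term is 1 section, so its animal and its treatment cannot be told apart. Spot depth also ran differently across the zones. From the periportal to the pericentral zone, median UMIs a spot went from 20032.5 to 11887 in the healthy section. They went from 12420 to 17434.5 and from 13199 to 13514 in fibrotic replicates 1 and 2, and from 15832 to 13797.5 in the Hk2-deleted section. The part of depth in the term was not tested.

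Gclm had the same signs, 0.13 log2 in the healthy section and -0.06, -0.09 and -0.24 in the others, with a term of -0.26 ± 0.10 log2 that was not called (adjusted p = 0.0752; 0.0437 without fibrotic replicate 1). For Nfe2l2 the term was 0.25 ± 0.09 log2 (adjusted p = 0.0661). The terms were 0.23 ± 0.14 log2 for Hmox1 (adjusted p = 0.267), -0.11 ± 0.18 for Nqo1, -0.11 ± 0.13 for Txnrd1 and 0.11 ± 0.20 for Srxn1. In the zone fit without that term Gclm (-0.06), Gclc (-0.02), Txnrd1 (0.01) and Hmox1 (0.00 log2) were near 0, with SEs of 0.07 to 0.08; the sign of these 4 changed under at least 1 alternative each. On the CPM scale Gclm rose from the periportal to the pericentral zone in fibrotic replicates 1 (111 to 127) and 2 (152 to 173). In the Hk2-deleted section it was at 123 and 121. Values of other cells move along the same axis. In the CCl4-treated sections summed stellate cell markers were at 298 to 428 CPM in the periportal and 922 to 1049 in the pericentral zone, and macrophage markers at 2002 to 2735 and 3220 to 4163 CPM, while in the healthy section macrophage markers were at 1673 and 1226 CPM; their part in these results was not tested.

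**Figure D2:**
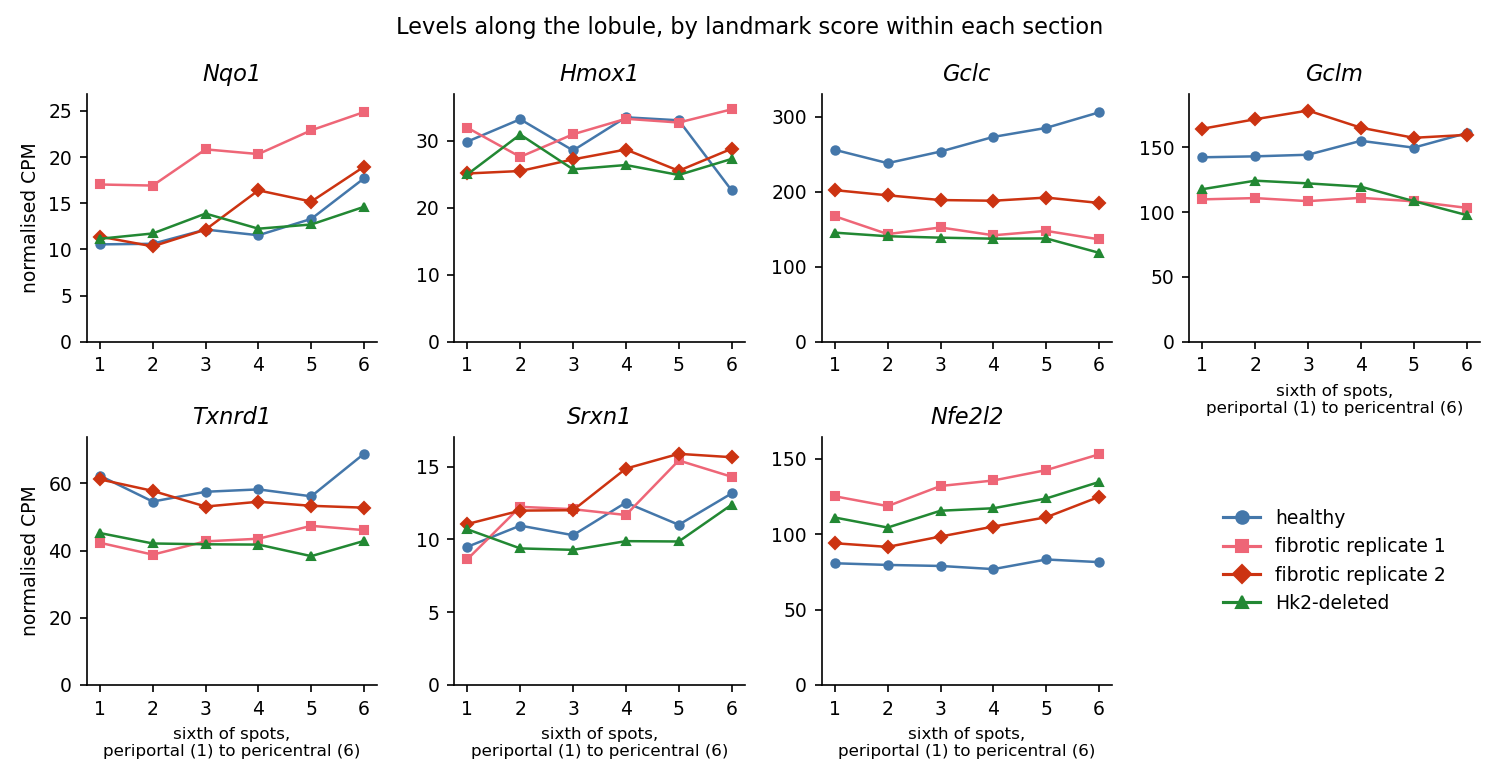
Levels of the 7 genes along the lobule. Spots of each section were ranked by landmark score and cut into 6 equal parts, from periportal (1) to pericentral (6); the vertical axes give normalised CPM from 0, and each line is 1 section. Relative to the other genes, Gclc ends higher than it starts in the healthy section and lower in the 3 CCl4-treated ones, where Nfe2l2 ends higher.

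Of all genes 5.96% were called higher and 5.07% lower in the pericentral zone. Of the other pathway genes 63 were tested between zones: 14 were higher in the pericentral zone and 4 lower, with a median of 0.09 log2. The glutathione transferases Gstm3 (1.74 ± 0.10 log2, adjusted p = 0.000286) and Gstm2 (1.48 ± 0.10) and the exporter Abcc4 (0.93 ± 0.18) led the pericentral side. Cth, which makes cysteine for glutathione from cystathionine, was lower there (-0.82 ± 0.16 log2, adjusted p = 0.0227). Leaving out 1 CCl4-treated section cost 12 to 13 of these calls. By the zone by CCl4 term 1 of these pathway genes was higher and 18 were lower, with a median of -0.12 log2. The shares over all genes were 9.39% higher and 11.4% lower. The fatty acid transporter Cd36 (-0.92 ± 0.09 log2), Cth (-0.81 ± 0.15) and the exporter Abcc3 (-0.69 ± 0.09) went against the central vein with CCl4, as Gclc did, and the glutathione transferase Gstp1 went towards it (0.88 ± 0.16). Total UMI scaling lost 10 of these calls, and DESeq2 also 10. Keap1 (0.11 ± 0.07 log2) and Bach1 (-0.17 ± 0.07) were not called between zones, nor by the term.

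Collagen-high spots, the 10% of a section's spots with the largest share of Col1a1, Col1a2 and Col3a1 UMIs, mark the scar in CCl4-treated liver. There were 413, 258 and 386 in fibrotic replicates 1 and 2 and the Hk2-deleted section, and 69.9% to 83.3% of them lay in the pericentral zone. The collagen contrast differed by section. Col1a1 was at 1150 CPM in collagen-high and 298 in other spots of fibrotic replicate 1, and at 620 and 121 in fibrotic replicate 2. The Hk2-deleted section had 1366 and 138 CPM. The part of this contrast in the differences in collagen-high spots, and in their comparison by genotype, was not tested. Relative to the other genes, the glutathione pair Gclc and Gclm and the thioredoxin reductase Txnrd1 were lower in these spots in all 3 CCl4-treated sections. Gclm was at 98.8 normalised CPM in collagen-high and 120 in other spots of fibrotic replicate 1, 148 and 185 in fibrotic replicate 2, and 94.0 and 129 in the Hk2-deleted section. The differences were -0.28, -0.33 and -0.46 log2, and the fit gave -0.34 ± 0.06 log2 (1.27-fold lower; adjusted p = 0.000284). Gclc was at 135 and 162 in fibrotic replicate 1, 179 and 212 in fibrotic replicate 2, and 112 and 153 normalised CPM in the Hk2-deleted section, with a fit of -0.31 ± 0.06 log2 (adjusted p = 0.000828). Txnrd1 was at 43.0 and 48.2, 47.6 and 61.8, and 39.2 and 46.5 normalised CPM in the same order, with a fit of -0.24 ± 0.07 log2 (adjusted p = 0.0091).

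The background is high: of 13167 genes tested 22.1% were called lower and 21.9% higher (44% in all), beside 3 of 7 members (Gclm, Gclc and Txnrd1) lower and 0 higher. With each zone of each section as its own block, which sets spots against others of the same zone, the differences were -0.30 (Gclm), -0.29 (Gclc) and -0.23 log2 (Txnrd1). Zones of 1 animal count there as separate blocks (8 residual degrees of freedom in place of 2, from 3 animals), so p-values of that fit are too small and only its sizes are given. In the fit by section the 3 genes were also called without fibrotic replicate 1 (-0.37, -0.32 and -0.28 log2). Under total UMI scaling none of the 3 was called lower (-0.02, 0.01 and 0.08 log2) and Nfe2l2, Hmox1, Nqo1 and Srxn1 were called higher, so the drop is relative to most other genes and not to all UMIs. Hepatocyte markers summed to 103471 to 153589 CPM in collagen-high and 125300 to 188003 CPM in other spots, stellate cell markers to 1329 to 1423 and 484 to 673 CPM, and macrophage markers to 3575 to 4792 and 2432 to 3311 CPM; their part in the result was not tested.

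Nfe2l2 leaned the other way in these spots, by 0.14, 0.20 and 0.06 log2, with a fit of 0.15 ± 0.06 log2 (adjusted p = 0.0502). Within zones the difference was 0.03 log2. Nqo1 had 24.8 normalised CPM in collagen-high and 22.4 in other spots of fibrotic replicate 1, 21.1 and 14.6 in fibrotic replicate 2, and 14.2 and 13.8 in the Hk2-deleted section (0.22 ± 0.10 log2, adjusted p = 0.098; 0.09 within zones). Fibrotic replicate 2 carried most of it. With liver surface spots left out Nqo1 passed (0.32 log2, adjusted p = 0.0115), 1 of 3 alternatives out of 11 that called it. Hmox1 (0.09 ± 0.08 log2, adjusted p = 0.374) was higher only in fibrotic replicate 1 (0.25 log2; -0.10 and 0.00 in the others), and was -0.06 log2 with surface spots left out. Srxn1 was at -0.03 ± 0.12 log2 (adjusted p = 0.879). In the healthy section, whose collagen-richest spots are not scar, the differences were -0.23 (Gclc), -0.17 (Gclm), -0.12 (Txnrd1), -0.10 (Nqo1), -0.09 (Hmox1), -0.03 (Srxn1) and 0.05 log2 (Nfe2l2), given without a test.

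**Figure D3:**
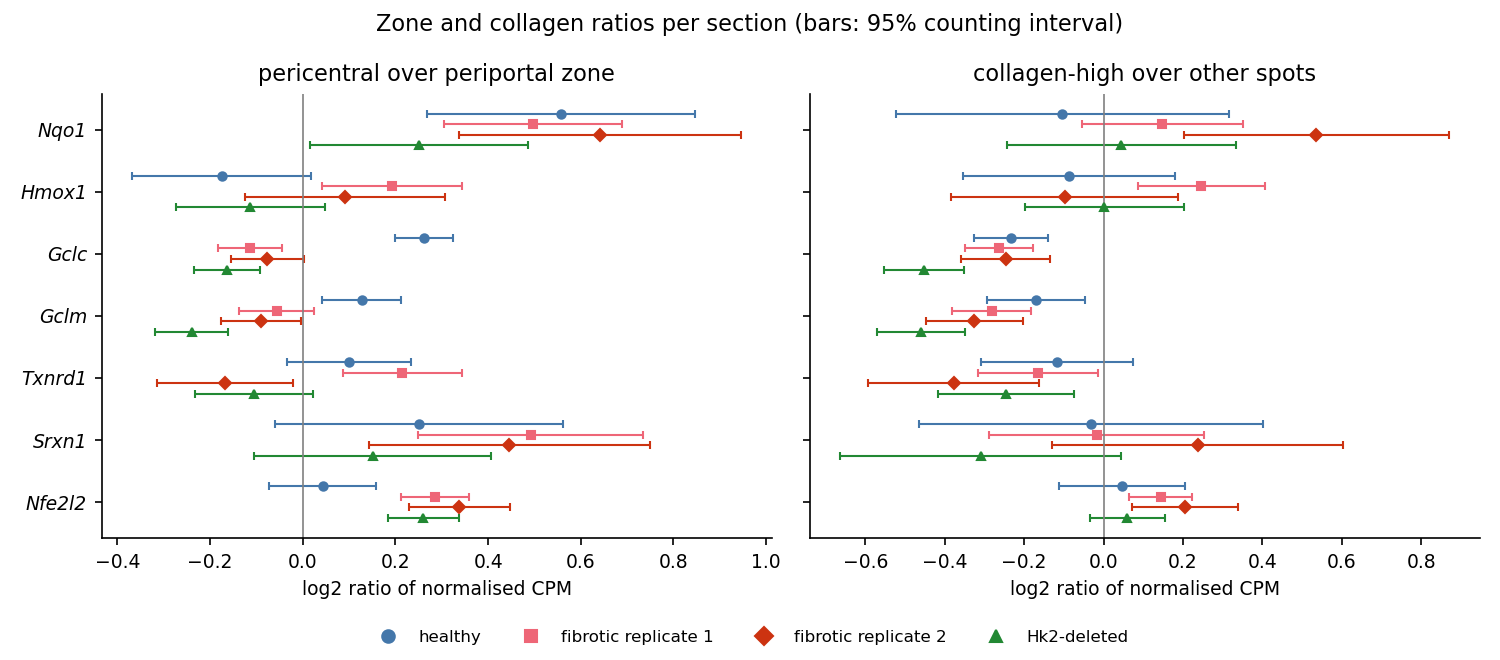
Differences between zones (left) and between collagen-high and other spots (right) for each gene and section. The horizontal axes give log2 ratios of normalised CPM, points are sections and bars are 95% counting intervals, which leave out the spread between animals. Nqo1, Srxn1 and Nfe2l2 lie right of 0 in all sections on the left, and Gclc, Gclm and Txnrd1 lie left of 0 in all sections on the right.

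After TMM scaling the step for Gclc and Gclm in the CCl4-treated sections was widest between the collagen-high spots and their direct neighbours. For Gclm in the Hk2-deleted section the level was 89.3 normalised CPM in these spots, 118 in those 1 spot away, and 120, 123 and 123 at 2, 3 and 4 or more spots. Fibrotic replicate 1 had 93.4, 108, 113, 121 and 116, and fibrotic replicate 2 had 143, 170, 163, 180 and 180. Gclc in the Hk2-deleted section went from 106 over 135 to 141, 141 and 149 normalised CPM. Both genes were also lowest in the collagen-richest spots of the healthy section, which are not scar. Gclc was at 232 normalised CPM there and 256 at 1 spot away, and Gclm at 135 and 143. Nfe2l2 ran the other way at the scar in the fibrotic replicates. It had 152 in collagen-high spots and 132 to 139 around them in fibrotic replicate 1, and 124 and 102 to 107 in fibrotic replicate 2. In the Hk2-deleted section it went from 126 over 120, 111 and 119 to 122 normalised CPM. The counting intervals of the first and last of these (118 to 134 and 118 to 126) overlapped. On the CPM scale fibrotic replicate 1 had no step for Gclm, which was at 121 in collagen-high spots and 120 at 1 spot away. Gclc was at 165 and 163 there. In fibrotic replicate 2 Gclm was at 166 and 170, and Gclc at 202 and 191. The Hk2-deleted section kept a drop on that scale, with 117 and 129 for Gclm and 139 and 147 for Gclc. In the healthy section Gclc was at 212 and 219 CPM, and Gclm at 123 and 122.

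**Figure D4:**
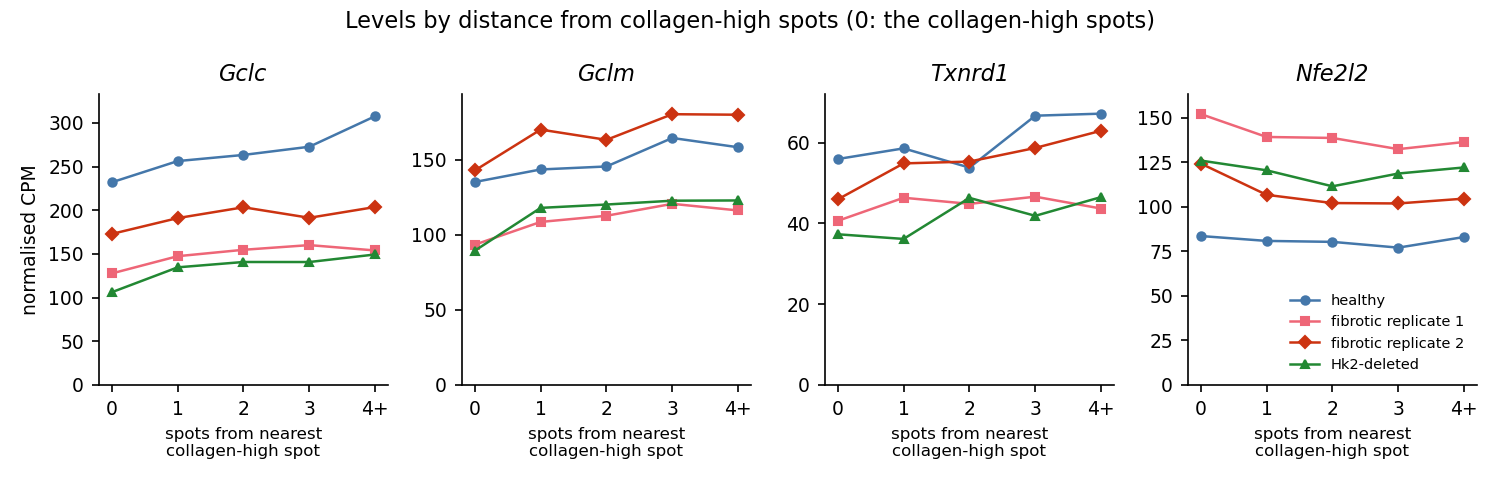
Levels by distance from the nearest collagen-high spot, in spots (0 is the collagen-high spots, 4+ is 4 or more). The vertical axes give normalised CPM from 0, and each line is 1 section. In the CCl4-treated sections Gclc and Gclm are lowest at 0, as the values for Gclm in the Hk2-deleted section (89.3 against 118 at 1 spot) show. The healthy section, without scar, also has both lowest at 0 (Gclc 232 against 256 at 1 spot, Gclm 135 against 143). Nfe2l2 is highest at 0 in the CCl4-treated sections, by little in the Hk2-deleted one (126 against 122 at 4+). On the CPM scale only the Hk2-deleted section has Gclc and Gclm lowest at 0.

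Of all genes 21.9% were called higher in collagen-high spots and 22.1% lower. Of the other pathway genes 65 were tested there: 10 were higher and 25 lower, with a median of -0.09 log2. Total UMI scaling lost 7 of these calls and turned the sign of 14 genes, 2 of them (Keap1 and Bach1) not called before, and leaving out fibrotic replicate 1 lost 9. The amino acid enzymes that feed glutathione led the lower side, Cth (-0.98 ± 0.07 log2, adjusted p = 2.02e-07) and Cbs, which makes cystathionine (-0.83 ± 0.06), with the peroxidase Gpx1 (-0.67 ± 0.06). The carbonyl reductase Cbr3 was higher (0.79 ± 0.14 log2, adjusted p = 0.000375). These 4 kept direction under all 11 alternatives. They also kept their call, leaving aside the fit with zones as blocks, whose p-values are too small. Keap1 (-0.01 ± 0.08 log2) and Bach1 (0.00 ± 0.07) were near 0, but both were called higher under total UMI scaling (0.30 and 0.31 log2). Whether the scar difference itself changed with Hk2 deletion was tested with a spot kind by genotype term. It called 0 of 7 members, with sizes from -0.38 ± 0.25 (Srxn1) to 0.02 ± 0.14 log2 (Txnrd1) and no unadjusted p under 0.05; of all genes 0.722% were called higher and 0.0759% lower (0.797% in all), and DESeq2 called 0 members too. For Gclc, at -0.45 log2 in the Hk2-deleted section and -0.26 and -0.25 in the fibrotic ones, the term was -0.18 ± 0.10 log2 (adjusted p = 0.614). Of the other pathway genes 0 of 65 were called, among them Fth1 (-0.17 ± 0.11), Gpx1 (-0.14 ± 0.11), Keap1 (0.23 ± 0.16) and Bach1 (0.12 ± 0.15 log2).

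The members did not vary as 1 block. Over 22 pools (section by zone by collagen-high or not, each of at least 20 spots, relative to the section's mean, on the CPM scale) Pearson's r between members ran from -0.15 (Hmox1 and Srxn1) to 0.72 (Nqo1 and Nfe2l2), with 0.64 for Nqo1 and Gclc, 0.61 for Srxn1 and Nfe2l2, and 0.55 for the subunits Gclc and Gclm. Pools of a section share its library and the scaling, so these are descriptions. The genes most like Nfe2l2 were Trem2, a receptor of lipid-associated macrophages (r = 0.98), Gdf2, the ligand BMP9 made by stellate cells (0.97), and Rtp4, an interferon-induced gene (0.97). With summed markers the r of Nfe2l2 was 0.93 for lymphocytes, 0.91 for stellate cells, 0.80 for macrophages and -0.66 for hepatocytes. Nqo1 was most like Wnt2, a Wnt ligand of liver endothelium (0.92), Robo1 (0.92) and Olfr1033 (0.90), and Gclc most like Tex2 (0.90), Fmo1 (0.87), a drug oxidising enzyme, and Fitm2 (0.87). Gclm was most like Pex11a (0.84), Plcxd2 (0.83) and Egln2 (0.80), Txnrd1 like Fbxo22 (0.85), Psma4 (0.79) and Tbcel (0.77), and Hmox1 like Tbx2 (0.92), Sf3b1 (0.91) and Gpi1 (0.91). Srxn1 had 0 UMIs in its smallest pool, and its r with Pdilt of 0.96 was 0.85 without that pool. Trem2, Wnt2 and Nqo1 also had few, with 2, 3 and 4 UMIs in the pool where each had fewest. Without the smallest pool r was 0.97 for Nfe2l2 with Trem2 and 0.92 for Nqo1 with Wnt2.

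The authors' deposited table gives Moran's I, a score of how far neighbouring spots resemble each other, per section. In it Nfe2l2 scored 0.0067 in the healthy section, rank 5407 of 15352 genes from the highest, and 0.0468 in fibrotic replicate 1, rank 729 of 17243. By the authors' deposited table it was 0.0278 in fibrotic replicate 2 (rank 1145 of 16301) and 0.031 in the Hk2-deleted section (rank 1530 of 17028). Gclc was at rank 607 in the healthy section of the authors' deposited table, at 0.0513, the highest of the 7 there. These scores follow depth and level too, and the lists differ in length.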

How the data were processed

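The deposited matrices hold whole UMI counts per gene and spot, made with Space Ranger 2.0.0 per the file headers. The submitters' processing notes name the build mm10; no source used here names the probe set. The deposited Moran's I is a score of the authors. Spots are not replicates, so counts were summed per section (40585039 to 67479047 UMIs), or per section and zone or spot kind, and tested with edgeR 4.0.16 (R 4.3.3; TMM, filterByExpr, quasi-likelihood test, Benjamini-Hochberg adjusted p under 0.05 over all genes). Residual degrees of freedom were 1 (sections, genotype term), 2 (zone by CCl4 and collagen-high) and 3 (zones); with each zone of a section as a block they were 8 (collagen-high) and 7 (genotype term), from blocks that share animals. Zone scores are mean z of log2(CPM + 1). Alternatives included DESeq2 1.42.0. Scripts were tested on simulated data. Poisson intervals (95%) cover counting error only.

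The members and lists were chosen with earlier results of these data known. Other pathway genes were named by a rule: up to 4 called per comparison with the largest change, or the 2 with most UMIs, plus Keap1 and Bach1. Of 74 listed, 66 were in the matrices. Likeness used log2(CPM + 1) of genes of at least 10 CPM.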

Additional observations from a re-analysis of the deposited data

Results flagged for a closer look

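Gclc differed between groups in its lobule pattern: the zone by CCl4 term, CCl4-treated sections minus the healthy one, was -0.378 log2, with 1 section on the healthy side. After TMM scaling the pericentral to periportal difference was positive in the healthy section (0.26 log2) and negative in 3 of 3 CCl4-treated sections. On the CPM scale, without TMM, Gclc was higher in the pericentral than in the periportal zone of every section. The change of sign is thus relative to the other genes. Spot depth also ran differently across the zones of these sections, and its part was not tested.

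Nqo1 in collagen-high against other spots was at -0.10 log2 (-0.103) in the healthy section and above 0 in all 3 CCl4-treated sections (0.15, 0.54 and 0.05 log2). That difference was not tested, and the counting intervals of the healthy value and of 2 of the 3 others span 0.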

How the results depend on the processing

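Of 420 recomputed member values, 366 kept direction and side of the threshold, 27 reversed, 21 gained and 5 lost a call, and 1, without a test, moved. Of 1157 values for other pathway genes, their counts of calls included, 959 kept both, 142 lost a call, 1 gained one, 24 reversed and 31, which are counts or carry no test, moved. These counts include the fits with zones as blocks, whose p-values are too small. The causes were not tested. Only scaling to total UMIs was added after the data were seen. Under it the median of all genes stood at 0.34 log2 with CCl4 and 0.21 between zones. For the zone by CCl4 term it stood at 0.15, and in collagen-high spots at 0.33. Members called higher under this scaling share that shift with genes in general. With CCl4 it called 206 genes lower and 2 members higher, with Hmox1 at 0.28, Gclm 0.18, Txnrd1 0.042 and Keap1 0.17 log2. Between zones it called 4035 genes higher, 353 lower and 3 members higher, with Gclc at 0.19, Gclm 0.15 and Bach1 0.040. By the zone by CCl4 term it called 540 genes lower, 1 member higher and 0 lower, with Nqo1 at 0.033, Txnrd1 0.033 and Keap1 0.024. In collagen-high spots it called 7310 genes higher, 685 lower, 4 members higher and 0 lower, with Gclc at 0.0095, Txnrd1 0.077, Srxn1 0.29, Keap1 0.30 and Bach1 0.31. It called 63 genes higher and 50 lower with Hk2 deletion, and 179 higher by the genotype term.

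DESeq2 called 737 genes higher and 297 lower with CCl4 (1362 and 567 in edgeR), 11 higher with Hk2 deletion (20), 415 and 533 by the zone by CCl4 term (1189 and 1439), 1873 higher in collagen-high spots (2881), and 3 and 1 by the genotype term (95 and 10); Hmox1 between zones was -0.0066 log2. With RLE scaling it was -0.0060, and the genotype term called 39 and 3 genes. With no filter 69 genes were higher and 57 lower with Hk2 deletion, 144 and 19 by the genotype term, and 2 members higher between zones. Between zones the main fit called 1 member and 5.96% of all genes higher. With only the outermost spots of each score, 2 members were higher between zones, Hmox1 was -0.0058 and the CCl4 term of Nqo1 0.032. Landmarks without Oat and Slc1a2 gave 2 members higher between zones and 1 higher by that term. Without collagen-high spots 4 genes were higher and 1 lower with Hk2 deletion, 879 lower by the zone by CCl4 term, and Gclc between zones was 0.027.

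In collagen-high spots the main fit called 0 members and 21.9% of all genes higher. With the top 20 percent as collagen-high, 2 members were higher and Srxn1 was 0.044. With the top 5 percent Bach1 was 0.014 and the genotype term called 57 genes higher. Without surface spots 1 member was higher, Hmox1 was -0.059 and Keap1 0.048, and the genotype term called 5 genes higher and 4 lower, with Gclm at 0.019, Txnrd1 -0.037 and Gpx1 0.082. With zones as blocks Bach1 was 0.038.

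Leaving out 1 section in turn gave 86 to 2660 genes higher and 82 to 2788 lower between zones, 0 to 3 members higher and 0 to 2 lower; the highest counts came without the healthy section. Members lower by the zone by CCl4 term were 1 to 2, and members higher in collagen-high spots 0 to 1. Between zones Hmox1 ran from -0.067 to 0.048, Gclc from -0.12 to 0.022 and Txnrd1 from -0.055 to 0.070 log2, and in collagen-high spots Hmox1 from -0.013 to 0.12, Keap1 from -0.11 to 0.044, Bach1 from -0.053 to 0.033 and Srxn1 from -0.16 to 0.078. Where that left no residual degrees of freedom, values carry no test. No paired analysis between groups was possible because each section is from its own mouse. Zones and spot kinds were compared within sections, with section as the block. Depth limits Srxn1 most, with 506 UMIs in the healthy section.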
